A study of Mus musculus with 3 samples.

Results

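Retinol dehydrogenases and retinoid handling genes were examined in mouse liver after viral delivery of Cre recombinase to Hnf4a-floxed animals. The set held 9 genes, of 18193 named on the array: the dehydrogenases Rdh5, Rdh7, Rdh9, Rdh10, Rdh11, Rdh16 and Rdh16f2, the plasma carrier Rbp4 and the esterifying enzyme Lrat. These genes were chosen by function with their Cre to control differences already known, so those differences are given as a description and carry no test. A gene counted as a member when a probe set listed its symbol alone, and its brightest probe set over all arrays stood for it. All 9 genes were found, and all 9 lay above the filter on dim genes, on the Cre array too.

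Both groups were 3-month-old mice of mixed strain whose livers were taken 1 week after 1 intraperitoneal injection of 400 microL of virus. The control group (n = 2 mice) received MUP-EGFP-AAV8, which carries a fluorescent protein. The Cre group (n = 1 mouse) received MUP-iCre-AAV8, which carries a recombinase that excises floxed DNA. AAV8 is an adeno-associated virus; what MUP stands for is not spelled out in the labels. The genotype is given inconsistently: the design text describes floxed mice in both groups, while the sample labels give wild type for the controls and an HNF4alpha knockout for the other liver. Virus, genotype and individual mouse therefore cannot be told apart. Each mouse gave 1 array, and the number of arrays limits the precision. All values are expression on the log2 scale. The filter value that marks dim genes was 3.77, and the median probe set lay between 4.15 and 4.18 on the arrays.

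The liver identity of the RNA was checked on albumin, Alb, which measured 14.75 and 14.72 in the controls and 14.62 with Cre. Hnf4a itself was lower in the Cre liver on each of its 4 probe sets, by 1.47-fold to 2.27-fold. Xist stayed below the filter value on all 3 arrays, and the Y-linked gene Eif2s3y measured 7.70, 7.75 and 8.07. Among marker lists, 0 of 18 stellate cell genes passed limma's test at an adjusted p under 0.05, with 2 at an unadjusted p under 0.05. The same held for 0 of 7 hepatocyte genes and 0 of 10 sinusoidal endothelial genes, again with 2 each at an unadjusted p under 0.05, and for 0 of 4 lymphocyte and neutrophil genes, with 0. Of all fitted genes 3977 (31.2%) reached that unadjusted level, a larger share than in these 4 lists. Of 10 Kupffer cell markers 1 rose (Marco, 1.88 ± 0.16 SE, adjusted p = 0.0097 by limma), and of 4 cholangiocyte markers 1 rose (Sox9, 2.35 ± 0.43 SE, adjusted p = 0.0452 by limma). Over all fitted genes 6.71% rose by that test. Sox9 measured 3.87 and 4.82 in the controls, the first close to the filter value, and 6.69 with Cre.

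Retinoids are vitamin A and its derivatives. Retinol dehydrogenases, enzymes of the short-chain dehydrogenase family, interconvert retinol and retinal; aldehyde dehydrogenases then make retinoic acid, which acts through nuclear receptors of the RAR and RXR types. The liver is the main store of vitamin A: hepatocytes take it up and secrete it bound to RBP4, and stellate cells hold it as retinyl esters made by LRAT. Several of the mouse dehydrogenases, known as CRAD enzymes, also oxidise hydroxysteroids.

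Of the 9 genes, 7 read below both controls in the Cre liver, and these were the 7 dehydrogenases. Among all 12735 fitted genes 33.6% were lower than both controls. The size of the fall split the dehydrogenases: Rdh9, Rdh16, Rdh16f2 and Rdh5 were at least 2-fold below both controls, and Rdh7, Rdh10 and Rdh11 were not. No member was 2-fold above both controls. Over all fitted genes 3.72% were at least 2-fold below and 3.67% at least 2-fold above. Since the contrast was used in choosing the members, nothing is read from these counts against that background. The median difference was -0.94 over the 9 genes and -2.69 over the dehydrogenases, beside 0.09 over all fitted genes.

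**Figure D1:**
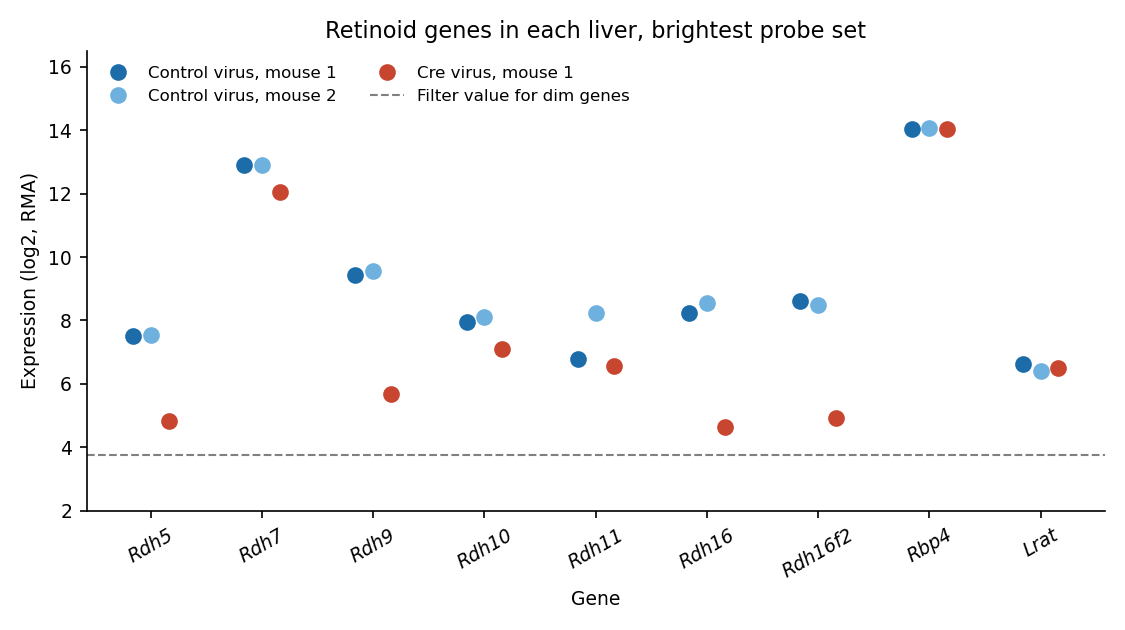
Expression (log2, vertical axis) of each retinoid gene (horizontal axis) in the control virus livers (blue points) and the Cre virus liver (red point), from the brightest probe set; the dashed line is the filter value of 3.77. Rdh5, Rdh9, Rdh16 and Rdh16f2 drop to between 4.65 and 5.68 in the Cre liver, while Rbp4 and Lrat stay at their control levels.

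The 3 dehydrogenases with the largest falls, Rdh9, Rdh16 and Rdh16f2, lie together with Rdh7 in 1 cluster on mouse chromosome 10. Their promoter sequences are shown because these genes were low together and because HNF4alpha binds DNA. RefSeq promoter windows (assembly GRCm38.p6) were found for 8 of the 9 members, 11 windows in all. The 250 bases upstream of the annotated start are printed 5′ to 3′ on the strand of the gene. Capitals mark matches to CAAAGNNCA, a loose form of the HNF4 pattern CAAAGTCCA, searched on both strands. The Rdh9 window is chr10:127776155-127776404 (plus strand), that of Rdh16 chr10:127800903-127801152 (plus strand), that of Rdh16f2 chr10:127866226-127866475 (plus strand), and that of Rdh7 chr10:127888734-127888983 (minus strand, the second of 2 annotated starts).
Rdh9: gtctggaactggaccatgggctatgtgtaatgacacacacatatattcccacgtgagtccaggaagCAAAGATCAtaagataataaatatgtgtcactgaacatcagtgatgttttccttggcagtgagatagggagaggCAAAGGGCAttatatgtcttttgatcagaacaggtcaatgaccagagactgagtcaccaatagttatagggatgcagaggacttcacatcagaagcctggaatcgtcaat
Rdh16: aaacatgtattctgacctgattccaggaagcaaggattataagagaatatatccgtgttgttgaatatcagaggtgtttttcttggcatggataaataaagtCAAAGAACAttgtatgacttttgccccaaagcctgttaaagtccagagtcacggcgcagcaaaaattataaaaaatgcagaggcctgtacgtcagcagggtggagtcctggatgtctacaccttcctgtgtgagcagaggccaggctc
Rdh16f2: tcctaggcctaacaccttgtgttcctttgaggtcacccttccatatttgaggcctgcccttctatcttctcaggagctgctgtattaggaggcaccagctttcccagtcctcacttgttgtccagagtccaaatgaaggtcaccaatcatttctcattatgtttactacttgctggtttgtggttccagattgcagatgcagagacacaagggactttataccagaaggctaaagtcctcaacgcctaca
Rdh7: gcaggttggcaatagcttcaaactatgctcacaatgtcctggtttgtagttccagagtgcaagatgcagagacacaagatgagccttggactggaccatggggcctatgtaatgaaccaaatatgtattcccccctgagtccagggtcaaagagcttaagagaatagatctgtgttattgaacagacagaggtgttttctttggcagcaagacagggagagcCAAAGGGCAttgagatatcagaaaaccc

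Rdh9 held 2 matches, beginning 184 and 110 bases upstream of the start, and Rdh16 held 1 at 148 bases. The printed Rdh7 window held 1 at 28 bases, and the window of its other start, not printed, held none. No other member window held CAAAGNNCA, and 5.49% of all 32851 windows of that length did. The letters of CAAAGTCCA were in 0 of the 11 member windows and in 0.384% of all windows. Direct repeats of AGGTCA spaced by 1, 2 or 5 bases were in 0 member windows (0.0335%, 0.00913% and 0.00913% of all windows). A TATAAA was found upstream of Rdh16, Rbp4 and, on the opposite strand, Rdh16f2, against 12.4% of all windows. Matches describe letters only, and a window without one says nothing of binding. The cluster's printed windows resemble each other beyond the motifs. Over the full 300 bases of each window, Rdh9 and Rdh16 aligned along 266 columns with 75.9% identity. Rdh9 aligned with the printed Rdh7 window along 145 columns with 79.3%, and with the other Rdh7 window along 12 columns. Rdh16f2 aligned with Rdh16 over 82 columns (73.2%).

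Rdh9, also called CRAD3, oxidises cis-retinols and hydroxysteroids. It measured 9.44 and 9.55 in the controls and 5.68 with Cre, 14.0-fold lower than the control mean (-3.81). Rdh16, also called CRAD1, measured 8.24 and 8.56 against 4.65, 13.4-fold lower (-3.75). Rdh16f2, a related enzyme named CRAD-L in RefSeq, measured 8.61 and 8.50 against 4.92, 12.4-fold lower (-3.63). In all 3 the Cre liver lay far below both controls, which differed from each other by 0.11, 0.32 and 0.11. The Cre values of Rdh16 and Rdh16f2, like that of Rdh5, came close to the median probe set, so the sizes of these differences are uncertain.

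Rdh7, or CRAD2, the fourth gene of the cluster, had a smaller difference from a high level. It measured 12.91 and 12.91 in the controls and 12.05 with Cre, 1.81-fold lower (-0.86). The controls lay 0.0072 apart, and the Cre liver was below both. The close relation of these genes bears on their probe sets: Rdh9 was read by 1 probe set alone, of the _s_at type that can read several similar transcripts. A probe set shared by Rdh16 and the pseudogene Rdh18-ps measured 5.16 and 4.90 against 4.53, a difference of -0.50.

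The block of lower transcripts included 1 neighbour that is no member. From Rdh9 to Rdh7, 4 of 6 genes were measured, all members. Next to Rdh7 lies Sdr9c7, another short-chain dehydrogenase, which measured 8.0 and 8.61 against 3.76. That Cre value lay just below the filter value, and the gene entered the fit through its control levels, so the fitted fall (-4.55 ± 0.29 SE, adjusted p = 0.00474 by limma) has an uncertain size. On its second probe set Sdr9c7 measured 7.52 and 7.87 against 4.63, above the filter value on all arrays, with a difference of -3.06. Beyond it Hsd17b6, which acts on hydroxysteroids, measured 11.44 and 10.67 against 11.11 and did not pass (0.06 ± 0.34 SE, adjusted p = 0.922 by limma). On the other side Rdh1 was below the filter value on all arrays, and Gpr182 differed by -0.02. Of the 20 nearest protein-coding genes, 10 on each side of the cluster, 15 were fitted, and Sdr9c7 was the only one at least 2-fold below both controls. Their median difference was 0.38. The promoter windows of Sdr9c7 and Hsd17b6 held no CAAAGNNCA.

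**Figure D2:**
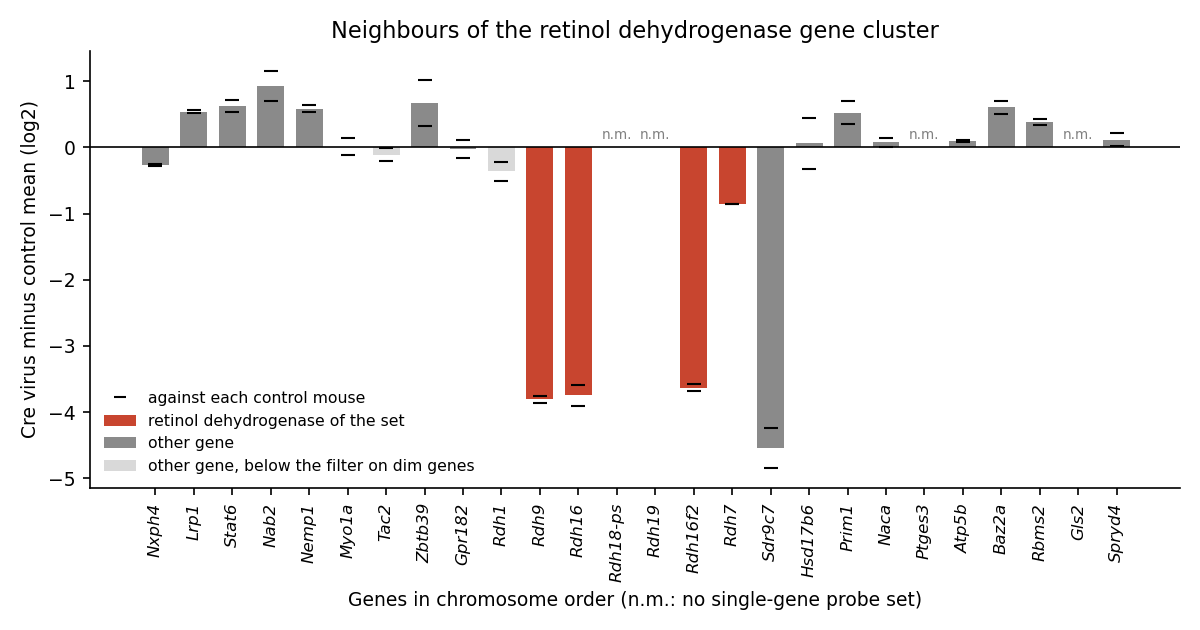
Difference between the Cre virus liver and the control mean (log2, vertical axis) for the genes along the chromosome (horizontal axis, in RefSeq order); bars are differences from the control mean, dashes those from each control mouse, and red bars are members. Rdh9, Rdh16, Rdh16f2 and Sdr9c7 lie between -3.63 and -4.55, Rdh7 at -0.86, and the other fitted neighbours between -0.26 and 0.93.

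Rdh5 oxidises cis-retinols and is best known from the visual cycle of the eye. It also lies on chromosome 10, outside the cluster. It measured 7.51 and 7.53 in the controls and 4.83 with Cre, 6.47-fold lower (-2.69). The controls lay 0.02 apart, and the groups did not overlap. A brighter probe set that lists both Rdh5 and Bloc1s1 measured 9.17 and 9.05 against 9.13, a difference of 0.02, and what share of its signal is Rdh5 is not known.

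Rdh10, the dehydrogenase that supplies retinal for retinoic acid in the embryo, measured 7.95 and 8.12 in the controls and 7.09 with Cre, 1.92-fold lower (-0.94). The Cre liver lay below both controls. On its other probe set the values were 6.37 and 6.27 against 5.96, a difference of -0.36. The direction was the same on both probe sets and the size was not.

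Rdh11, a retinal reductase of the endoplasmic reticulum, read below both controls by very unequal amounts. It measured 6.77 and 8.23 in the controls and 6.57 with Cre. Against control 1 the Cre liver differed by -0.21 and against control 2 by -1.66, so the mean difference of -0.93 rests on control 2. The second Rdh11 probe set measured 5.59 and 6.94 against 5.64, with the Cre liver between the controls, so its place below both rests on 1 of 2 probe sets. The gap of 1.46 between the controls was rarely exceeded: 30 of 12735 fitted genes (0.236%) had a larger one.

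Rbp4 encodes the protein that carries retinol from hepatocytes into plasma. It measured 14.04 and 14.06 in the controls and 14.05 with Cre, so the Cre value lay between the controls. Values this close to the highest on the arrays (15.05) can be limited by the probes; whether they were here was not tested. Ttr, the partner that holds RBP4 in plasma, differed by -0.10 ± 0.08 SE and did not pass (adjusted p = 0.416 by limma).

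Lrat esterifies retinol for storage and is expressed in stellate cells. On its brighter probe set it measured 6.62 and 6.41 in the controls and 6.51 with Cre, again between them. On the dimmer one it measured 4.54 and 4.21 against 3.73, with differences of -0.81 and -0.48, and the last value lies under the filter value. The probe sets therefore disagree. The summed linear signal of the 18 fitted stellate cell markers was 3531 and 3879 in the controls and 4503 with Cre. In bulk tissue fewer cells of a type and less RNA per cell cannot be told apart.

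**Figure D3:**
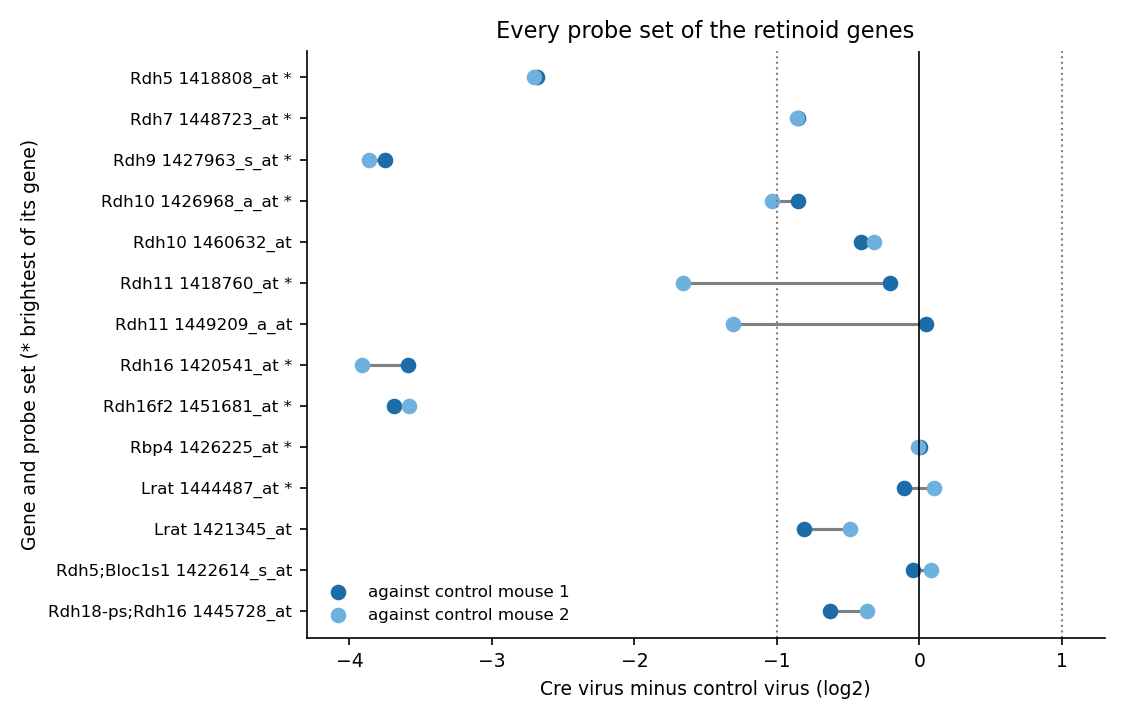
Difference between the Cre virus liver and each control mouse (log2, horizontal axis) for every probe set of the retinoid genes (vertical axis), including the 2 that list a further gene; dotted lines mark 2-fold. The points of Rdh9, Rdh16, Rdh16f2 and the single-gene Rdh5 probe set lie at -2.68 or below, and the long lines of Rdh11 show its gap between the controls.

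For the 3 members with the largest differences, the most similar profiles were found among all fitted genes, by Euclidean distance over the 3 arrays after subtracting each gene's control mean. For Rdh9 these were Hsd3b5 (distance 0.053), Serpinf2 (0.145) and Xylb (0.158). For Rdh16 they were Tfpi2 (0.053), Pdzk1 (0.114) and Perp (0.117), and for Rdh16f2 Pla2g12b (0.065), Slco1a1 (0.077) and Car5a (0.089). With 3 arrays, such likeness reflects little more than a fall of the same size.

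Other genes of retinoid metabolism were taken from 8 lists by role, chosen with earlier results of these data known. Of 74 genes, 62 had a probe set of their own, and 51 were bright enough to be fitted. Of these 7 rose and 5 fell by limma (adjusted p under 0.05), that is 13.7% and 9.8%, beside 6.71% and 5.21% of all fitted genes. Their median difference was -0.03. The counts moved with the settings, as did those over all genes. Centring each array on its median gave 11 and 8 (1210 and 782 of all fitted genes), and quantile normalization 11 and 13 (1192 and 1007), with all 12 genes kept in both. With no filter they were 4 and 5 (446 and 509 of all fitted genes). Without shared probe sets they were 4 and 4 (471 and 452), and without the trend in eBayes 5 and 5 (657 and 540).

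Enzymes that share substrates with the dehydrogenases went both ways. Of 13 other retinol and retinal oxidoreductases 2 fell and 2 rose. Besides Sdr9c7, Adh4, an alcohol dehydrogenase active on retinol, fell from 11.50 and 11.41 to 8.33 (-3.12 ± 0.11 SE, adjusted p = 0.00136 by limma). Adh1, the abundant hepatic alcohol dehydrogenase that clears retinol, rose from 13.58 and 13.42 to 14.08 (0.58 ± 0.11 SE, adjusted p = 0.0452 by limma; up to 0.109 in other settings). Dhrs7 rose on its brightest probe set (1.24 ± 0.14 SE, adjusted p = 0.0168 by limma) but not as the mean of its 3 probe sets (0.38, adjusted p = 0.142 by limma). That mean includes 1 probe set below the filter value on all arrays and another dim one, at 4.67 and 4.46 against 4.27. Dhrs3, a retinal reductase, differed by -0.03 and did not pass.

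Of 6 genes for retinoic acid synthesis 1 fell and 1 rose. Aldh8a1, an aldehyde dehydrogenase that oxidises retinal in vitro, fell from 11.15 and 11.05 to 6.86, 18.9-fold (-4.24 ± 0.12 SE, adjusted p = 0.00107 by limma), and its second probe set differed by -4.10. Aox1, an aldehyde oxidase, rose by 0.70 ± 0.12 SE (adjusted p = 0.0395 by limma; up to 0.0768 in other settings). Aldh1a1, the main retinal dehydrogenase of the adult liver, measured 13.36 and 13.58 against 13.41 and did not pass (adjusted p = 0.782 by limma). Both carotenoid cleavage genes read lower without passing, Bco1 at -0.89 ± 0.23 SE and Bco2 at -1.15 ± 0.27 SE. By limma's test 0 of 2 passed, with 2 at an unadjusted p under 0.05, a level that 31.2% of all fitted genes reached. Both passed after quantile normalization, a setting that called more of all fitted genes.

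Of 7 receptors and corepressors, Rarb alone passed. Rarb, a retinoic acid receptor whose gene is itself induced by retinoic acid, rose from 4.60 and 4.75 to 6.77, 4.28-fold (2.10 ± 0.17 SE, adjusted p = 0.00855 by limma). Rxra, the main hepatic RXR, differed by -0.58 ± 0.12 SE (adjusted p = 0.0564 by limma), and Rara by -0.28. Of 7 retinoic acid responsive genes 1 rose and 2 fell. Tgm2, a transglutaminase, rose from 9.70 and 9.56 to 11.83 (2.20 ± 0.12 SE, adjusted p = 0.00303 by limma). Rarres1 fell from 9.74 and 9.59 to 5.62 (-4.05 ± 0.14 SE, adjusted p = 0.00135 by limma). Rarres2, which encodes the secreted protein chemerin, fell from 12.37 and 12.22 to 8.82 (-3.47 ± 0.12 SE, adjusted p = 0.00135 by limma). A second bright probe set of Rarres2 measured 12.45 and 12.24 against 8.70, a difference of -3.64, and a dim one differed by -0.16. Genes named for retinoic acid response thus did not share a direction.

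Cyp26a1, the hydroxylase that degrades retinoic acid, measured 7.57 and 6.68 in the controls and 8.82 with Cre. That difference of 1.69 ± 0.40 SE did not pass (adjusted p = 0.0736 by limma); 0 of 2 genes of retinoic acid breakdown passed, with 1 at an unadjusted p under 0.05 (31.2% of all fitted genes). In transport 1 of 5 genes rose, the fatty acid and carotenoid carrier Cd36 (2.43 ± 0.38 SE, adjusted p = 0.0332 by limma; up to 0.0613 in other settings). Stra6l, the hepatic RBP4 receptor, averaged 9.94 in the controls against 10.55 (0.61 ± 0.12 SE, adjusted p = 0.0528 by limma). In ester formation and hydrolysis 1 of 9 rose, the lipoprotein lipase gene Lpl (1.79 ± 0.15 SE, adjusted p = 0.00853 by limma). The carboxylesterase genes Ces1d (1.70 ± 0.43 SE) and Ces1e (-2.23 ± 0.57 SE), whose products hydrolyse esters, lay in opposite directions and did not pass; they are close in sequence, so their probe sets may read both.

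The summed linear signal of the 10 Kupffer cell markers was 1134 and 1769 in the controls and 2233 with Cre. By that sum the controls differed more from each other than control 2 did from the Cre liver. By the mean log2 value, 6.28 and 6.76 against 7.28, they did not. The median difference of these markers from the control mean was 0.70, beside 0.09 over all fitted genes. Whether the Kupffer cell signal bears on the retinoid genes that rose was not tested.

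**Figure D4:**
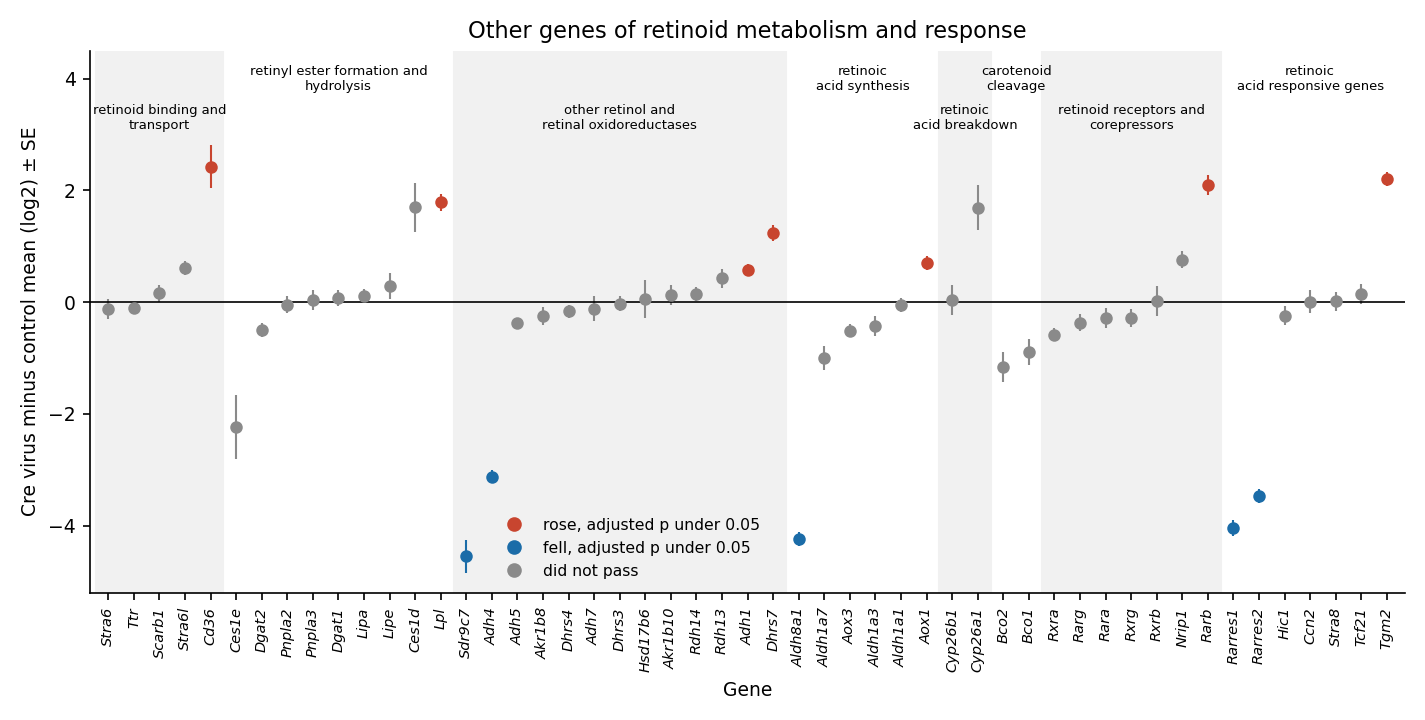
Difference between the Cre virus liver and the control mean (log2, vertical axis, with limma's SE) for the 51 fitted retinoid genes outside the set (horizontal axis, grouped by role); red points rose, blue points fell and grey points did not pass at an adjusted p of 0.05. The 5 falls lie between -3.12 and -4.55, and the 7 rises between 0.58 and 2.43.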

How the data were processed

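Total liver RNA from 3 mice was hybridised to 1-colour arrays after biotin labelling by in vitro transcription, per the labels' protocols. The authors summarised each probe set as a log2 value; the submitters' processing notes name RMA and Partek 6.5. Their base is an inference from the range (1.59 to 15.05), and every fold rests on it. RMA equalises the arrays, which hides a shift shared by all genes. No detection calls were used.

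Of 45101 probe sets, 34945 listed 1 gene. Symbols were updated by Entrez ID through a mouse gene table (GRCm38.p6), which also gave gene order. The brightest probe set stood for each of 18193 genes, and the 12735 whose mean reached the 30th percentile of gene means (3.77) entered a fit in limma 3.58.1 in R 4.3.3 (eBayes with trend, two-sided, Benjamini-Hochberg over all fitted genes). The controls left 1 residual degree of freedom, with 3.18 prior degrees of freedom, and the single Cre array is taken to be as variable as they are. In simulated data the fit recovered most of the largest changes but very few 2-fold ones. That simulation changed far fewer genes than were called here and gave the spread no trend with brightness. How many 2-fold changes were missed on the real arrays is therefore not known, and a gene that did not pass may still have changed. The 9 members and all lists were chosen with earlier results of these data known. Named genes were all members, each called gene of the retinoid lists and others looked for by role. Promoter windows are RefSeq's. Figures used matplotlib 3.10.9.

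Alternatives were eBayes without trend or robust, other filters, median centring, quantile normalization, mean or unshared probe sets, other fold thresholds and each control left out.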

Additional observations from a re-analysis of the deposited data

How the results depend on the processing

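Each of the 9 members was recomputed under every alternative that changes its value. Rdh5, Rdh7, Rdh9, Rdh10, Rdh11, Rdh16 and Rdh16f2 stayed below the control mean in all of them; without shared probe sets (suffix _s_at, _x_at or _a_at) Rdh9 has none left. Rdh11 ranged from -1.66 to -0.21 as either control was left out. Members at least 2-fold below the control used numbered 6 without control 1 and 4 without control 2, beside 4 with both controls. Over all fitted genes these counts were 581 and 549, beside 474 with both controls. Rbp4 ranged from -0.01 to 0.08 and Lrat from -0.33 to 0.10. Leaving out a control leaves limma no residual degrees of freedom, so those alternatives give values with no test.

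With no filter, 446 genes rose, and 471 without shared probe sets; 1007 fell after quantile normalization. Of the retinoid genes outside the set, 4 rose with no filter and 4 without shared probe sets. With arrays centred on their medians 11 rose (1210 of all fitted genes), and with quantile normalization 11 (1192). Falls numbered 8 with median centring (782 of all fitted genes), 13 with quantile normalization (1007) and 8 with robust eBayes (741). Genes past 1.5-fold numbered 1346 above and 855 below both controls, and past 4-fold 85 and 202. Of the 12 called retinoid genes, Adh1, Aox1, Cd36, Dhrs7 and Rarres2 lost their call in at least 1 alternative, and Tgm2 gave no value without shared probe sets. Of the named retinoid genes that did not pass, Bco1, Bco2, Ces1d, Ces1e, Cyp26a1, Rxra, Stra6l and Ttr passed in at least 1 alternative. The sizes of falls that end near the filter value are uncertain, because no detection calls were used to tell dim signal from background. The filter value is a percentile of gene means and not a detection limit, and array values ran down to 1.59.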

Other observations

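The gap of Rdh11 between the control livers was set beside genes of cholesterol synthesis and uptake, a list added after the values were seen. Rdh11 has been described as a target of sterol-responsive transcription factors. Of 16 such genes 13 were fitted: synthesis enzymes and the regulator Insig1, with no uptake gene among them. All 13 were higher in control 2 than in control 1, with a median gap of 1.12, beside 0.01 over all fitted genes. In the Cre liver 9 of the 13 lay below both controls and 4 between them, with a median difference from the control mean of -1.29; over all fitted genes 33.6% lay below both controls and the median difference was 0.09. Sqle, an enzyme of the sterol branch, measured 6.94 and 8.98 in the controls against 7.25, between them. Idi1, an isoprenoid isomerase, measured 9.36 and 11.0 against 8.05, below both, and Sc5d, a late sterol enzyme, 10.46 and 10.93 against 8.64. With 1 array per mouse the gap has no test, and no relation between Rdh11 and these genes was tested.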
